A study of Danio rerio with 16 samples.

Results

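MZ embryos injected with Pou5f1 mRNA (MZ_Pou5f1, 3 samples) were set against MZ embryos injected with Sox2 mRNA (MZ_Sox2, 4 samples). These are 7 of the 16 samples of the series, chosen by their titles, and the contrast sets 2 factors against each other in 1 mutant background, with no uninjected control in it. Genes were taken by brightness: of 9238 named genes on the array, 4949 had a mean log2 intensity of 8 or more over the 16 samples, and these are called bright.

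Both groups were zebrafish carrying allele m793 of spg, which the labels give as the MZ mutant, and both had been put into cycloheximide (15 µg/ml) at 1.5 hours after fertilization and frozen for RNA at 4.7 hours. MZ_Pou5f1 embryos had received 100 pg of Pou5f1 mRNA and MZ_Sox2 embryos 50 pg of Sox2 mRNA, so the injected mass differed between the groups. A sample was the RNA of 60 to 100 pooled whole embryos in 1 dye channel of a 2-colour Agilent array, and the series' design text calls the replicates biological. Levels are given as quantile-normalised intensities. Differences are MZ_Pou5f1 minus MZ_Sox2 in log2 units, from limma with dye as a covariate, so they need not equal the gap between the plain group means.

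Pou5f1 (pou5f3 on the array) is a POU-domain transcription factor related to mammalian Oct4, and Sox2 is an HMG-box factor of the SoxB1 family. In mammalian pluripotent cells the proteins bind DNA side by side. In zebrafish, maternal Pou5f1 acts with Nanog and maternal SoxB1 protein when the zygotic genome is first transcribed. Cycloheximide stops translation, so transcripts that respond after it is added do so without newly made intermediate proteins, and the comparison asks which transcripts differ between the factors under that block.

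The samples did not sort by the injected factor. Spearman correlations across bright genes were 0.929 to 0.971 among the 3 MZ_Pou5f1 samples (mean 0.945 over 3 pairs), 0.842 to 0.939 among the 4 MZ_Sox2 samples (mean 0.901 over 6 pairs) and 0.864 to 0.972 between the groups (mean 0.919 over 12 pairs). Of the 7 samples, 0 were closest to a sample of their own group. MZ_Pou5f1 replicates 1 and 2 were closest to WT_Sox2 replicate 3 (0.983 and 0.985), and MZ_Pou5f1 replicate 3 was closest to uninjected WT replicate 1 (0.993). MZ_Sox2 replicate 1 was closest to WT replicate 2 (0.940), replicates 2 and 3 to uninjected MZ replicate 3 (0.923 and 0.982), and replicate 4 to WT_Sox2 replicate 2 (0.945). Directions in the text therefore rest on the labels of these samples.

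The arrays lay on slides that divide the groups. All 3 MZ_Pou5f1 samples were on slide C, replicates 1 and 3 in Cy5 and replicate 2 in Cy3. MZ_Sox2 replicate 1 was on slide A in Cy5, and MZ_Sox2 replicates 2 to 4 were on slide B, all in Cy3. Because 0 slides held both groups, slide and factor cannot be told apart. Within MZ_Sox2, slide A against slide B is also Cy5 against Cy3, so slide and dye cannot be told apart there. List medians against the sample of slide A and against the samples of slide B come from plain means, with no dye term and no test. They are given beside the lists whose direction they change.

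**Figure D1:**
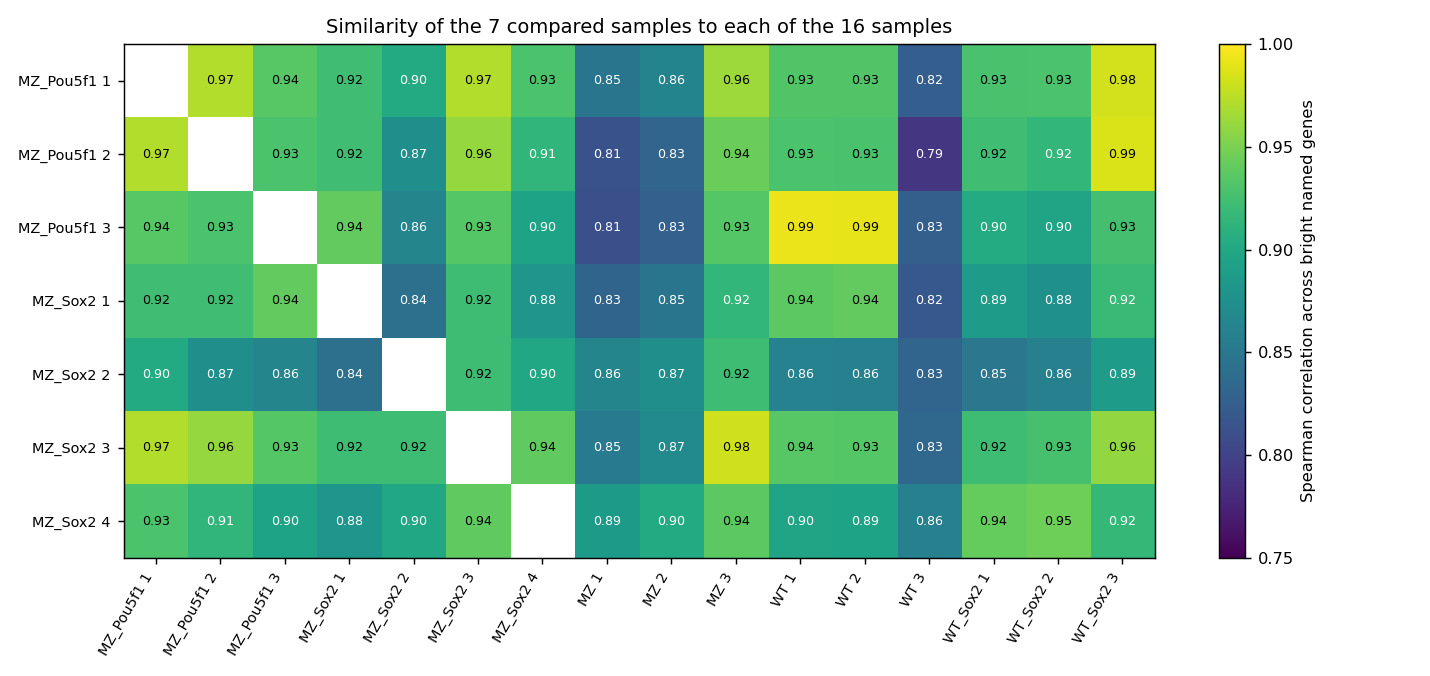
Spearman correlation across 4949 bright named genes between each of the 7 compared samples (rows) and each of the 16 samples (columns), on a colour scale from 0.75 to 1, with white cells for a sample against itself. MZ_Pou5f1 replicate 3 is closest to WT replicate 1 (0.993), and MZ_Sox2 replicate 3 to MZ replicate 3 (0.982).

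No gene differed between the factors at an adjusted p under 0.05. The limma fit called 0 of 21495 probes higher (0%) and 0 lower (0%), and the smallest Benjamini-Hochberg adjusted p was 0.9997. At an unadjusted p under 0.05 there were 456 probes (2.12%), and 113 of the 4949 bright genes (2.28%). The 3 MZ_Pou5f1 samples lay all above the 4 MZ_Sox2 samples for 152 bright genes (3.07%) and all below them for 143 (2.89%), together 295 (5.96%), and over all probes 1135 did not overlap (5.28%). These 152 and 143 genes are called non-overlapping, higher or lower, and the percentages are the background for every count given for a gene group. Groups of 3 and 4 samples also separate by chance, so non-overlap describes the samples and is not a test. Since 0 genes were called, the text gives values and says which samples lay high or low, and makes no claim that a gene rose or fell.

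The differences were centred on zero and mostly small. Of the bright genes 2504 had a positive and 2445 a negative difference, with a median of 0.01 and a median size of 0.24. A difference of more than 1 in size was measured for 195 genes (3.94%), 79 positive and 116 negative. The median 95% confidence interval extended 0.80 to either side of the estimate. The interval lay within 1 of zero for 2128 genes (43.0%) and within 2 of zero for 4456 genes (90.04%). Differences of moderate size were thus not detectable for most genes at this number of arrays and this spread among samples. The fit took that spread from all 16 samples, including groups outside the contrast. With only the 7 samples fitted, 947 probes (4.41%) had an unadjusted p under 0.05 in limma, and 0 were called. Just inside the limit of brightness lay gnal and tmem47 (mean log2 8.001 and 8.002, differences 1.25 and 0.96), and just outside it cbln1 and etfdh (7.999 and 7.998, differences 0.29 and 0.23). The median SD among replicates was 0.31 in MZ_Pou5f1 and 0.45 in MZ_Sox2.

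**Figure D2:**
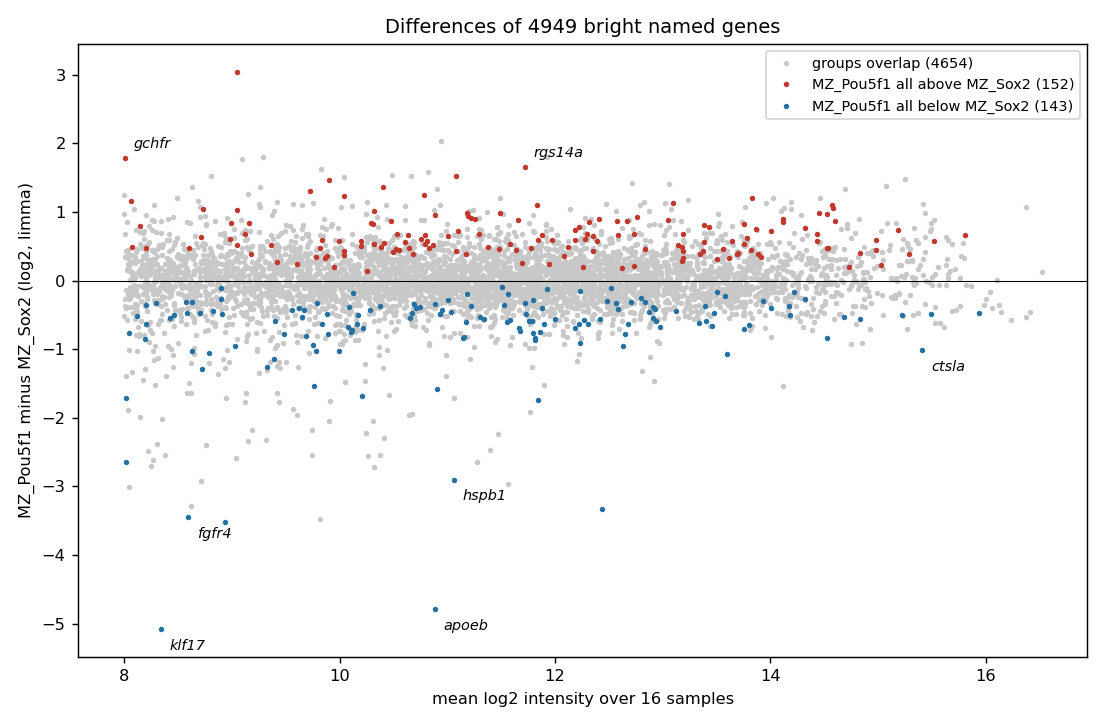
Difference of each of 4949 bright named genes (y axis, MZ_Pou5f1 minus MZ_Sox2, log2, limma) against its mean log2 intensity over 16 samples (x axis). Red and blue points are the 152 and 143 genes whose groups do not overlap, and klf17 and apoeb lie lowest at -5.08 and -4.79.

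Only klf17 and apoeb had the lowest sample of 1 group more than 1 log2 unit above the highest sample of the other, and both were lower in MZ_Pou5f1. At the other end lay prkar1aa, a regulatory subunit of protein kinase A, with 3.04 (SE 1.63); it was chosen after its values were seen. Its intensity was 204656, the highest value of the array, in MZ_Pou5f1 replicate 3, but 451 and 498 in replicates 1 and 2, against 232 to 434 in MZ_Sox2.

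Transcripts of the injected factors' own genes did not mark the injected group. The brightest probe of pou5f3 read 31274, 14120 and 17618 in MZ_Pou5f1 and 25745, 61076, 52514 and 45172 in MZ_Sox2. MZ_Sox2 replicate 1 lay among the MZ_Pou5f1 samples and the other 3 MZ_Sox2 samples lay above them, with uninjected MZ samples at 26206, 36334 and 62086. The difference was -0.91 (95% confidence interval -1.76 to -0.06, unadjusted p 0.0383 in limma). A second, dimmer set of readings came from sox2, whose probe was not bright: 40.5, 28.4 and 101 in MZ_Pou5f1 and 50.7, 176, 147 and 41.3 in MZ_Sox2. MZ_Pou5f1 replicates 1 and 2 lay below every MZ_Sox2 sample and replicate 3 lay within their range, with a difference of -0.72 (SE 0.67), and uninjected MZ samples read 168, 309 and 516. The sources used here do not say which stretch of either transcript was injected or whether the probes lie in it, so these probes do not check the labels.

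The bright genes of the early zygotic list, meant to hold genes transcribed early from the embryo's own genome, all had lower estimates in MZ_Pou5f1. Whether some of them were also supplied by the mother was not tested. Of 43 genes of this list 37 were on the array and 25 were bright. All 25 differences were negative, with a median of -0.995 against 0.01 over all bright genes. This count is no test, because the list was chosen with earlier results of these data known. Brightness was a mean over 16 samples, so a gene near background in MZ_Pou5f1 could pass through samples where it was high. One such gene was klf17, with a mean log2 level of 4.42 in MZ_Pou5f1 and 10.78 in MZ_Sox2. The same limits hold for the other lists. The limma test called 0 of the 25 early zygotic genes, 4 had an unadjusted p under 0.05 (background 2.28%), and 3 were non-overlapping lower (background 2.89%). Differences ranged from -0.17 for the Nodal ligand gene ndr1, named as the end of the range after its value was seen, to -5.08 for klf17. In these bulk samples fewer cells of a type and less RNA per cell cannot be told apart.

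The Krüppel-like factor klf17, which in zebrafish marks the future hatching gland, read 20.9, 18.4 and 25.6 in MZ_Pou5f1. In MZ_Sox2 it read 264, 5319, 2568 and 2667, and in uninjected MZ embryos 1023, 1649 and 4384. Uninjected WT samples read 9.48, 10.6 and 1929, so low klf17 readings were not confined to MZ_Pou5f1. The MZ_Pou5f1 samples were below the array's median intensity of 55.07, and MZ_Sox2 replicate 1 was the lowest of its group but still above them. The log2 level was 4.42 ± 0.24 (SD, n = 3) against 10.78 ± 1.89 (SD, n = 4), and the limma difference was -5.08 (SE 1.55, unadjusted p 0.00639). A second klf17 probe had a difference of -2.80 with overlapping groups.

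The lipid carrier apoeb, an apolipoprotein made in the yolk syncytial layer, read 261, 69.6 and 142 in MZ_Pou5f1. It read 999, 39915, 6611 and 9385 in MZ_Sox2, and 24628, 28975 and 10087 in uninjected MZ embryos. Uninjected WT samples read 165, 93.2 and 27079, so low apoeb readings were not confined to MZ_Pou5f1 either. MZ_Sox2 replicate 1 again lay closest to MZ_Pou5f1 and replicate 2 farthest. The difference was -4.79 (SE 1.93, unadjusted p 0.0285 in limma), and all 10 apoeb probes were non-overlapping lower, from -5.36 to -2.97; probes of a gene read the same samples and are not replicates. The small heat shock protein gene hspb1 read 648, 159 and 713 against 1005, 11678, 3640 and 9161, a difference of -2.90 (SE 0.97). MZ_Sox2 replicate 1 lay just above the MZ_Pou5f1 samples, and a second hspb1 probe had -2.87 with overlapping groups.

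**Figure D3:**
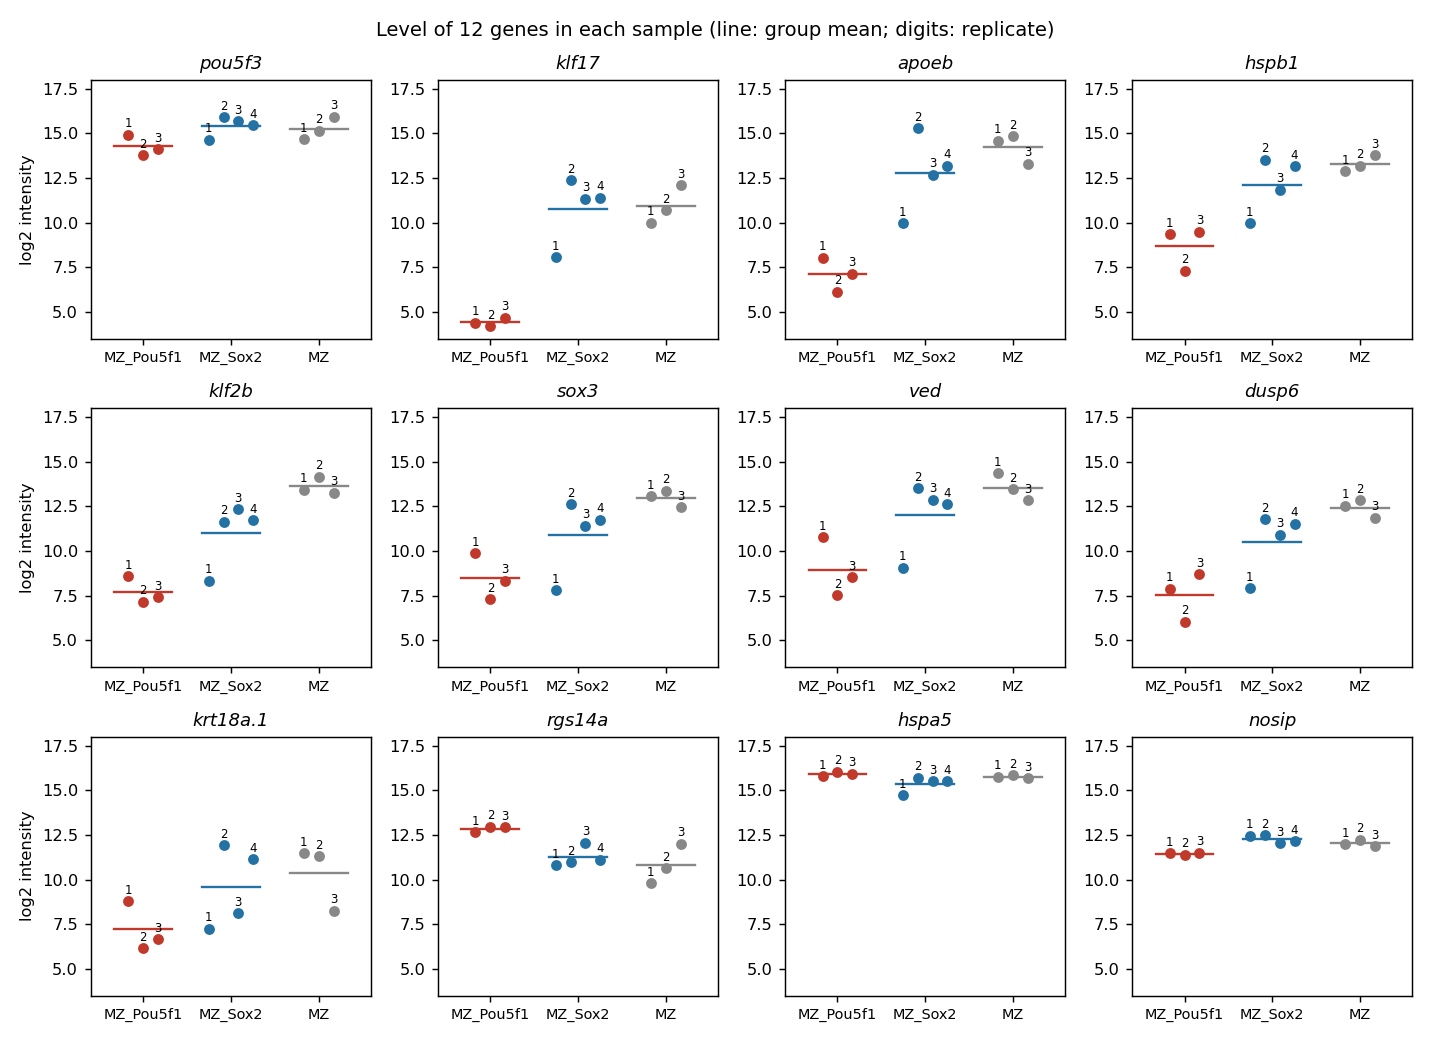
Log2 intensity of 12 genes in the 3 MZ_Pou5f1, 4 MZ_Sox2 and 3 uninjected MZ samples, 1 point a sample with its replicate number and a line at the group mean. For klf2b, sox3, ved and dusp6, MZ_Sox2 replicate 1 lies among the MZ_Pou5f1 samples or below them, and the other 3 MZ_Sox2 samples lie above.

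The early zygotic difference depended on which samples were compared. The list level, the median over its genes of the log2 intensity minus the gene's mean over the 7 samples, was 0.00, -1.68 and -0.81 in MZ_Pou5f1 replicates 1 to 3. It was -1.08 in MZ_Sox2 replicate 1, and 1.51, 0.80 and 1.02 in MZ_Sox2 replicates 2 to 4. On the same scale uninjected MZ samples had 2.23, 2.55 and 1.49, and uninjected WT samples -0.73, -0.78 and 2.13. MZ_Sox2 replicate 1, of slide A and in Cy5, thus sat with MZ_Pou5f1. It was below the other 3 MZ_Sox2 samples for 20 of the 25 genes (80.0%, against 26.8% of all bright genes). It was within the range of the MZ_Pou5f1 samples for 20 of the 25, against 2167 of all 4949 bright genes. MZ_Pou5f1 replicate 2 was the lowest of its 3 samples for 19 of 25 (76.0%, against 32.5% of all bright genes).

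Against the sample of slide A alone, 15 of the 25 early zygotic genes were positive and 10 negative, with a median of 0.16. Against the 3 samples of slide B, 1 was positive and 24 were negative, with a median of -1.79. In the limma fit without MZ_Sox2 replicate 1 all 25 were negative, with a median of -1.91. Without MZ_Pou5f1 replicate 2 the split was 11 positive and 14 negative, with a median of -0.21, and without both columns of another distribution (that sample and MZ_Sox2 replicate 4) it was 9 and 16, with a median of -0.33. With slide as a random block 24 of 25 were negative, with a median of -0.84.

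**Figure D4:**
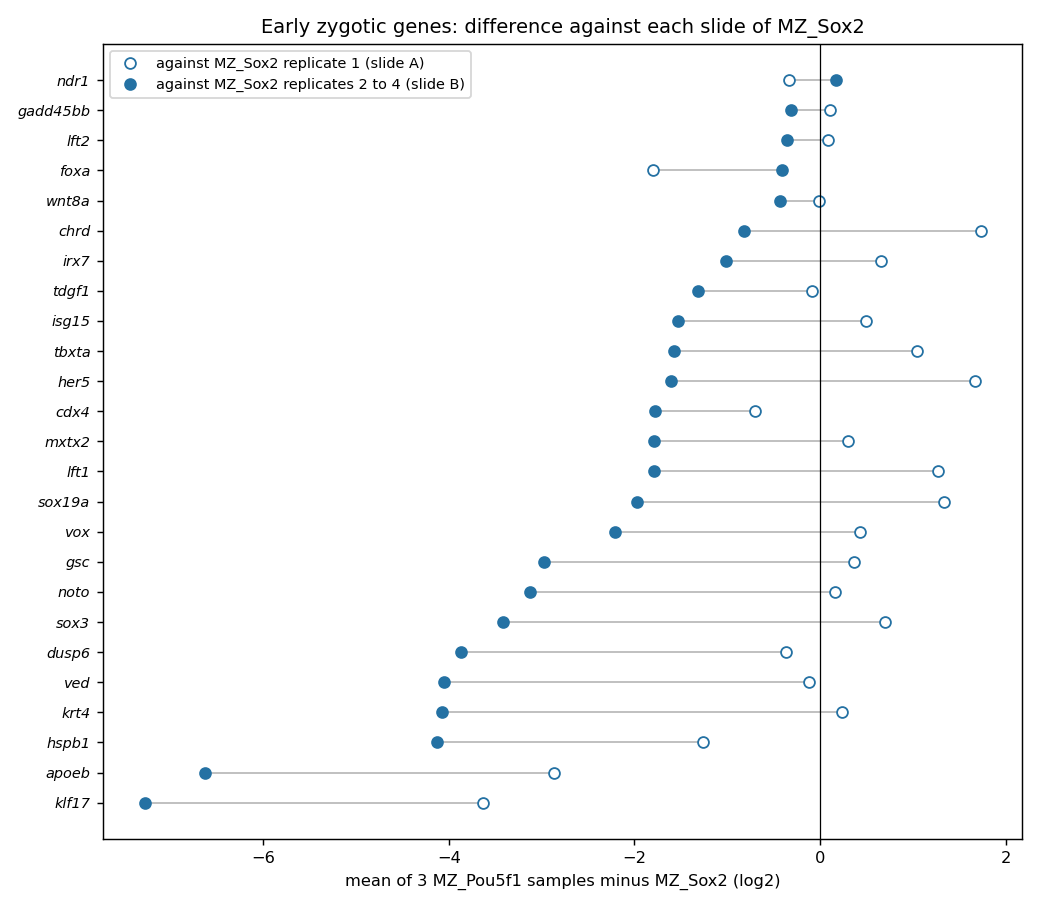
Difference of each of 25 bright early zygotic genes (x axis, mean of 3 MZ_Pou5f1 samples minus MZ_Sox2, log2, plain means) against the MZ_Sox2 sample of slide A (open circles) and the 3 of slide B (filled circles). The slide B values have a median of -1.79 and the slide A values a median of 0.16.

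POU and pluripotency regulators showed a similar order of samples. The lists share genes, so their counts are not independent: 2 of these 7 regulators, 5 of the 11 dorsal organizer genes and 4 of the 6 Nodal genes are early zygotic genes too. Of 14 on the array 7 were bright and all 7 were negative, with a median of -0.91; 1 was non-overlapping lower (klf17). The Krüppel-like genes (4 bright of 8, klf17 among them) were also all negative, with a median of -1.57, but 2 of the 4 were positive without MZ_Pou5f1 replicate 2, with a median of -0.55. Against the sample of slide A the medians were -0.38 for the regulators and -0.61 for the Krüppel-like genes, and against those of slide B -1.49 and -2.84. The zinc-finger factor gene klf2b read 383, 142 and 171 in MZ_Pou5f1 and 324, 3205, 5240 and 3369 in MZ_Sox2, a difference of -2.55 (SE 1.40). Its group overlap came from MZ_Sox2 replicate 1. The Nodal co-receptor gene tdgf1 read 17215, 9491 and 9385 against 12267, 31430, 23908 and 31204, a difference of -0.83 (SE 0.34), with MZ_Sox2 replicate 1 again inside the MZ_Pou5f1 range.

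The SoxB genes, relatives of the injected Sox2, showed no common direction. Of 6 on the array 4 were bright, 2 positive and 2 negative, with 0 non-overlapping and a median of -0.38. The early neural SoxB1 gene sox3 read 937, 159 and 324 in MZ_Pou5f1 and 224, 6270, 2743 and 3430 in MZ_Sox2 (difference -2.05, SE 1.05). MZ_Sox2 replicate 1 was near the bottom and the other 3 were above every MZ_Pou5f1 sample. The gene sox19a, the zygotically expressed SoxB1 member of the early blastula, read 3395, 399 and 1722 against 526, 5731, 5990 and 4103. Its difference of -0.82 (SE 0.93) became 0.91 without MZ_Pou5f1 replicate 2. The remaining pair ran the other way or level: sox1b had 0.95 (SE 0.97) and sox21a, chosen after its value was seen, 0.07 (SE 0.52). The list median was 1.02 against the sample of slide A and -0.83 against those of slide B.

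Early repressors of the Hairy/Enhancer-of-split and Id kind were 6 bright of 12 on the array, 1 positive and 5 negative, with a median of -0.49 and 0 non-overlapping. The Hairy-related gene her8a read 173, 31.2 and 212 against 98.5, 998, 507 and 501 (difference -1.64, SE 1.21). Its other probe had 0.11, but the mean log2 level of that probe, 3.16, was far below the limit of brightness. The Id gene id3 read 2603, 2410 and 2509 against 3798, 3566, 3214 and 2324 (difference -0.34, SE 0.49). Without MZ_Pou5f1 replicate 2, which was the lowest of its group for all 6, the split turned to 5 positive and 1 negative, with a median of 0.86. It was likewise 5 to 1 against the sample of slide A, with a median of 1.16, and against those of slide B all 6 were negative, with a median of -1.42.

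**Figure D5:**
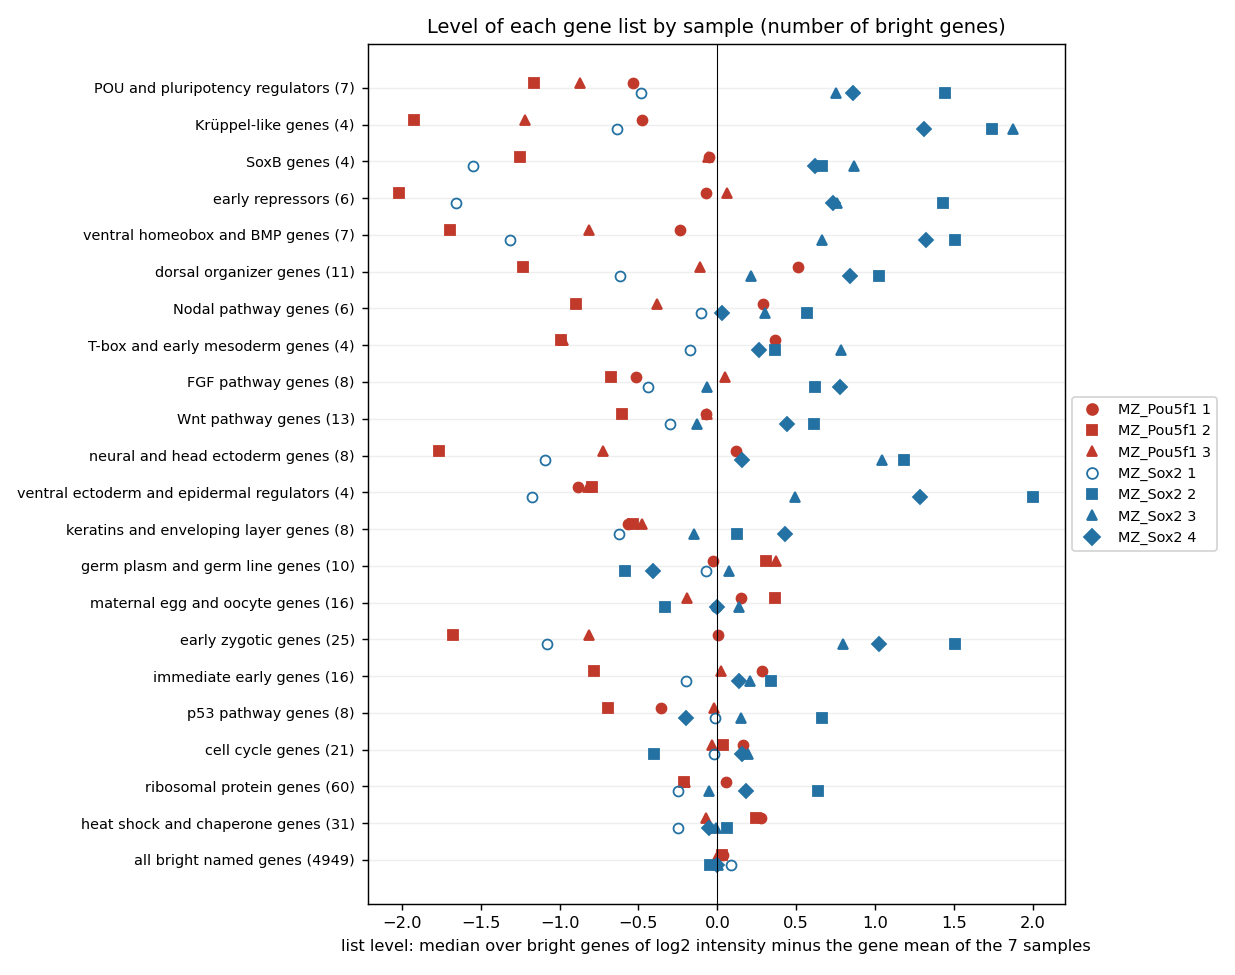
Level of each gene list in the 7 samples (x axis, median over bright genes of log2 intensity minus the gene's mean of the 7 samples), with the number of bright genes beside the name. In the early zygotic row MZ_Sox2 replicate 1 (open circle) is at -1.08 among the MZ_Pou5f1 samples (red) and MZ_Sox2 replicates 2 to 4 are at 0.80 to 1.51.

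Genes of both dorsoventral poles had mostly negative estimates. Ventral homeobox and BMP genes were 7 bright of 16, with 6 negative and 1 positive and a median of -1.32, and 2 of them, the BMP pseudoreceptor gene bambia and the signal transducer gene smad5, were non-overlapping lower; smad5 was chosen after its values were seen. The ventral repressor gene ved read 1752, 186 and 369 in MZ_Pou5f1, and 538, 11779, 7490 and 6255 in MZ_Sox2 (difference -2.64, SE 1.33). Its partner vox read 6619, 1587 and 3503 against 2472, 17508, 10471 and 19904 (difference -1.32, SE 0.81). For both genes MZ_Sox2 replicate 1 lay within the MZ_Pou5f1 range and the other MZ_Sox2 samples lay above it. The ventral list's median was -0.12 against the sample of slide A, -2.16 against those of slide B, and -0.47 without MZ_Pou5f1 replicate 2.

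The dorsal organizer genes were 11 bright of 19, all negative, with a median of -0.93. The 1 non-overlapping gene was cyp26a1, which encodes a retinoic acid-degrading enzyme and read 8629, 3988 and 10907 against 11942, 25125, 15770 and 16261 (difference -1.06, SE 0.43). The organizer homeobox gene gsc read 520, 269 and 142 against 211, 2445, 729 and 5387 (difference -1.76, SE 1.53). The BMP antagonist gene chrd read 4359, 298 and 2660 against 456, 1471, 2923 and 4441 (difference -0.25, SE 0.99), and gsc and chrd were both chosen after their values were seen. The list's direction also rested on MZ_Pou5f1 replicate 2: without it 6 were positive and 5 negative, with a median of 0.03. Against the sample of slide A 7 were positive and 4 negative, with a median of 0.28, and against those of slide B the median was -0.82.

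Nodal pathway genes (6 bright of 11, 5 negative, median -0.30), T-box and early mesoderm genes (4 bright of 10, 4 negative, median -0.53) and endoderm and yolk syncytial layer regulators (2 bright of 11, both negative, median -1.70) had 0 non-overlapping members. The mesoderm T-box gene tbxta read 1616, 126 and 314 against 194, 1188, 1404 and 1007, a difference of -0.74 (SE 1.37). The chemokine receptor gene cxcr4a, active in endoderm, read 2180, 331 and 773 against 690, 14824, 6273 and 13389, a difference of -2.23 (SE 1.14). Without MZ_Pou5f1 replicate 2 the Nodal median became 0.12, the mesoderm median 0.20 and the endoderm median -0.50. Both endoderm genes were positive against the sample of slide A, with a median of 0.28, and negative against those of slide B, with a median of -2.75. Of the hox and caudal genes 34 were on the array and 1, cdx4, was bright (difference -0.995, SE 0.98, and 0.094 without MZ_Pou5f1 replicate 2).

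Genes of the FGF and Wnt pathways had mostly negative estimates with smaller medians. FGF pathway genes were 8 bright of 17, with 7 negative, 1 positive and a median of -0.50. The receptor gene fgfr4 was non-overlapping lower and read 99.98, 22.5 and 124 against 148, 4820, 540 and 2052 (difference -3.45, SE 1.62). The phosphatase gene dusp6, a target and inhibitor of FGF signalling, read 236, 65.9 and 413 against 240, 3517, 1933 and 2966 (difference -2.54, SE 1.2). MZ_Sox2 replicate 1 thus lay within the MZ_Pou5f1 range, beside MZ_Pou5f1 replicate 1. Feedback and target genes such as etv5b (-0.50, SE 0.52) and spry2 (-0.16, SE 0.38), chosen after their values were seen, were smaller in difference. Wnt pathway genes were 13 bright of 19, with 11 negative, 2 positive, 0 non-overlapping and a median of -0.40. The Wnt receptor gene fzd8a had the lowest estimate, -2.38 (SE 1.38), with overlapping groups on its brightest probe. Its dimmer probes were non-overlapping lower, at -2.76 and -2.76, as was a dimmer probe of fzd8b at -0.94. The ligand gene wnt8a had -0.32 (SE 0.78). Without MZ_Pou5f1 replicate 2 the FGF median was -0.10, with 3 positive and 5 negative, and the Wnt median -0.15; without MZ_Sox2 replicate 1 the Wnt median was -0.83.

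Ectodermal genes split within MZ_Sox2 itself. Neural and head ectoderm genes were 8 bright of 23, with 7 negative, 1 positive and a median of -0.76, but 0.02 without MZ_Pou5f1 replicate 2. They split 4 to 4 against the sample of slide A, with a median of 0.14, and against those of slide B the median was -1.63. The forkhead gene foxb1a read 75.7, 7.18 and 66.5 against 75.5, 1345, 2291 and 517 (difference -3.29, SE 1.71). The reading of 7.18 was at the level of the array's dark corner feature, which read 6.85 to 9.87 in the 7 samples, so this difference rests in part on a value at background. Ventral ectoderm and epidermal regulators were 4 bright of 12, all negative, with a median of -1.12. Against the sample of slide A 3 of the 4 were positive, with a median of 0.24, and against those of slide B all were negative, with a median of -2.09. The GATA factor gene gata2a read 255, 192 and 276 against 233, 10644, 536 and 2631 (difference -2.18, SE 1.43). It was thus high in MZ_Sox2 replicates 2 and 4, and replicates 1 and 3 lay nearer to MZ_Pou5f1.

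Keratins and enveloping layer genes, markers of the embryo's outermost cell layer, were 8 bright of 19, with 3 positive, 5 negative, 0 non-overlapping and a median of -0.45. That median was 0.10 against the sample of slide A, -0.40 against those of slide B and -0.95 without MZ_Pou5f1 replicate 2. The type I keratin gene krt18a.1 read 443, 71.1 and 101 in MZ_Pou5f1 and 152, 3885, 274 and 2247 in MZ_Sox2, a difference of -2.54 (SE 1.16). The keratin genes krt4 and krt8, chosen after their values were seen, had the same order: krt8 read 915, 611 and 686 against 565, 31204, 610 and 8918. Of the 7 samples only MZ_Sox2 replicates 2 and 4 were high for these 3 keratins, while MZ_Sox2 replicates 1 and 3 lay within or beside the MZ_Pou5f1 range. The adhesion gene epcam ran the other way, with a difference of 1.13 (SE 0.72), and 2.00 and 1.83 on its other probes, all with overlapping groups. On the brightest probe MZ_Sox2 replicate 2 stood apart, with 1857 against 14658 to 37027 in the other 6 samples. Summed up as list levels, the enveloping layer genes ran from -0.57 to -0.48 in MZ_Pou5f1 and from -0.62 to 0.43 in MZ_Sox2, and their part in the other differences was not tested.

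Transcripts supplied by the mother had medians near or above zero. Germ plasm and germ line genes were 10 bright of 11, with 8 positive, 2 negative and a median of 0.30, and 2 were non-overlapping higher (background 3.07%). Without MZ_Pou5f1 replicate 2 the median was 0.13, and without MZ_Sox2 replicate 1 it was 0.57. The regulator of G-protein signalling rgs14a, a germ plasm transcript in zebrafish, read 6370, 7922 and 7753 in MZ_Pou5f1 and 1781, 1997, 4266 and 2221 in MZ_Sox2. The difference was 1.66 (SE 0.67), with uninjected MZ samples at 894, 1601 and 4136, and a second rgs14a probe had -0.10. The RNA-binding germ cell gene dazl, chosen after its values were seen, read 28547, 46688 and 36025 against 23627, 9982, 28055 and 14597 (difference 1.1, SE 0.57). The chemokine receptor gene cxcr4b ran against these with -1.71 (SE 0.79), and is also zygotically expressed in somatic cells.

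Maternal egg and oocyte genes were 16 bright of 16, with 10 positive, 6 negative, 0 non-overlapping and a median of 0.11, which became -0.19, with 5 positive and 11 negative, without MZ_Pou5f1 replicate 2. How these lists differ from the early zygotic genes was not tested. The zona pellucida gene zp3 had 0.55 (SE 0.33) and the cyclin B gene ccnb1 0.85 (SE 0.53). Cell cycle genes were 21 bright of 24, split 11 positive and 10 negative, with a median of 0.02. The mitotic kinase gene aurkb was the 1 non-overlapping member and read 28793, 32557 and 29210 against 10812, 12312, 27359 and 28175 (difference 0.98, SE 0.36). Only MZ_Sox2 replicates 1 and 2 were far below the MZ_Pou5f1 samples, and uninjected MZ samples spanned both levels at 12551, 12964 and 34199. The D-type cyclin gene ccnd1, which is transcribed zygotically, had -2.32 (SE 1.37).

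Ribosomal protein genes were 60 bright of 65, with 12 positive, 48 negative and a median of -0.32. Of these 4 (rpl5b, rpl7a, rpl9 and rpl24) were non-overlapping lower, and rpl5b and rpl7a were chosen after their values were seen. The large-subunit gene rpl9 read 13073, 11678 and 8477 against 22954, 19162, 14190 and 13694 (difference -0.71, SE 0.28), but its other 3 probes overlapped, at -0.34, 0.13 and -0.13. Against the sample of slide A the 60 genes split 30 to 30, with a median of 0.01, and without MZ_Sox2 replicate 1 they split 3 positive to 57 negative, with a median of -0.52. When each column was centred on its own median the split was 24 to 36, with a median of -0.15; that scaling moved the median of all bright genes to 0.15.

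Heat shock and chaperone genes were 31 bright of 34, with 21 positive, 10 negative and a median of 0.12. The 3 non-overlapping higher members were the endoplasmic reticulum chaperone gene hspa5, the disulfide isomerase gene pdia4 and the transcription factor gene xbp1, while hspb1 was non-overlapping lower. Levels of hspa5 were 56807, 67806 and 62086 in MZ_Pou5f1 and 27186, 53470, 46909 and 46244 in MZ_Sox2 (difference 0.67, SE 0.23), with uninjected MZ samples at 54876, 58424 and 52230. Levels of pdia4 were 22645, 31993 and 24672 against 10359, 11932, 16100 and 8258 (difference 1.2, SE 0.55), and xbp1 had 0.48 (SE 0.37). The genes pdia4 and xbp1 were chosen after their values were seen. Outside the list, the translocon gene sec61a1b read 14747, 17235 and 14246 against 11708, 8659, 12895 and 9693 (difference 0.57, SE 0.21).

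Immediate early and p53 pathway genes had mostly negative estimates. Immediate early genes were 16 bright of 27, with 5 positive, 11 negative, 0 non-overlapping and a median of -0.66, which was 0.00 without MZ_Pou5f1 replicate 2 and 0.06 against the sample of slide A. The immediate early gene ier2a read 2922, 289 and 1249 against 4903, 1062, 1978 and 1781 (difference -1.39, SE 0.89). The p53 pathway genes were 8 bright of 13, with 7 negative, 1 positive and a median of -0.58, or -0.32 without MZ_Pou5f1 replicate 2. The pro-apoptotic gene baxa was non-overlapping lower at 4923, 4822 and 3536 against 6174, 6648, 7295 and 8938 (difference -0.63, SE 0.21). Markers of differentiated tissues, which a blastula should lack, were on the array for 24 genes, of which 1, the cardiac-type actin gene actc1b, was bright (difference 0.36, SE 0.58). The other actc1b probes had mean log2 levels of 3.95 and 3.90, far below the limit of brightness, with differences of -0.05 and 0.06.

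Outside the lists, the genes with the steadiest separation had modest differences. That the groups of these genes separate is fixed by how they were chosen, and ranking by the moderated statistic favours a small spread. The nitric oxide synthase-interacting protein gene nosip had the smallest unadjusted p of the bright genes (0.00073 in limma). It read 2821, 2681 and 2891 in MZ_Pou5f1 and 5657, 5717, 4217 and 4502 in MZ_Sox2, with uninjected MZ samples at 4074, 4776 and 3758, and its difference was -0.87 (SE 0.19). The SD of its MZ_Pou5f1 samples was 0.06 on the log2 scale, and MZ_Sox2 replicate 1 lay beside replicate 2, the highest. The lysosomal protease gene ctsla read 29547, 40474 and 26516 against 74165, 52230, 60664 and 81511 (difference -1.01, SE 0.25), but a second ctsla probe had -0.01. The lysosomal fucosidase gene fuca1.1 had -0.84 (SE 0.27), the mitochondrial import gene timm13 -0.54 (SE 0.20), and the cystathionine gamma-lyase gene cth -1.05 (SE 0.39). A second timm13 probe had -0.51 with overlapping groups. Further lower genes were arl6ip5a (-1.03, SE 0.31) and the dystrobrevin gene dtnba (-0.91, SE 0.32). A second arl6ip5a probe had -1.52 with overlapping groups. The gene phlda2 was also non-overlapping lower (-1.72, SE 0.58), but it was neither steady nor modest in difference. It read 93.6, 91.5 and 250 in MZ_Pou5f1 and 338, 1248, 268 and 298 in MZ_Sox2.

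Among the non-overlapping higher genes gchfr, which encodes the feedback regulator of GTP cyclohydrolase, came first. It read 212, 360 and 496 in MZ_Pou5f1 and 104, 42.8, 182 and 112 in MZ_Sox2 (difference 1.78, SE 0.44), close to the limit of brightness, and uninjected MZ samples at 221, 280 and 307 lay on the MZ_Pou5f1 side. The ubiquitin ligase gene g2e3 read 11630, 13122 and 11859 against 3656, 4696, 9071 and 8152 (difference 1.13, SE 0.33). The ATP synthase subunit gene atp5mc1 had 1.07 (SE 0.35), with 1 of its 3 probes non-overlapping. A second bright atp5mc1 probe (mean log2 level 13.95) had 0.28 with overlapping groups, and the dimmest had a mean log2 level of 2.89. The propionyl-CoA carboxylase gene pcca had 0.90 (SE 0.31). The others were nucb2b (1.36, SE 0.46), tmem38b (0.91, SE 0.32), agfg1a (0.89, SE 0.31), rbpms2b (0.86, SE 0.28) and the thymosin gene tmsb5 (0.68, SE 0.24). The other 3 rbpms2b probes overlapped, at -0.14, -0.04 and 0.13, and a second tmsb5 probe overlapped at 0.52. For each of the higher genes named from gchfr to tmsb5, MZ_Sox2 replicate 1 held the lowest or the second-lowest reading of the 7 samples. That all 4 MZ_Sox2 samples lay below is fixed by how these genes were chosen.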

How the data were processed

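RNA of whole embryos was read on 2-colour Agilent arrays, and each dye channel was 1 sample. The deposited files hold linear intensity values. Per the labels' design text, the authors handled Cy3 and Cy5 apart in Genedata Analyst, with quantile normalisation. Agilent Feature Extraction is named in the submitters' processing notes; its version and the background correction are not given in the sources used here. Sorted values were identical in 14 of 16 columns. The other 2 (MZ_Pou5f1 replicate 2 and MZ_Sox2 replicate 4) were mapped by rank onto that distribution, and the deposited values were then taken to log2. Precision is limited by the number of arrays.

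After 60 control features were left out, 21495 probes were fitted with limma 3.58.1 in R 4.3.3: all 16 samples by group mean, with a dye term and a random block for array (consensus correlation 0.0429; 10 residual and 2.31 prior degrees of freedom). Moderated two-sided tests were adjusted over all probes by Benjamini-Hochberg, at a threshold of 0.05; the fit was tested on simulated data. In the platform annotation 12887 probes had 1 gene symbol, 0 several and 8608 none; RefSeq gene identifiers (GRCz12tu) matched 12807 and changed 0 symbols. A gene was read on its probe with the highest mean. Bright genes were those with a mean log2 value of 8 or more, and clone-type names were passed over.

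The 25 gene lists, the compared groups and the rules were chosen with earlier results of these data known. Named genes were pou5f3 and sox2, up to 12 bright non-overlapping genes in each direction by the size of the moderated statistic, and up to 3 bright members of each list by the same measure; others are said to be chosen after their values were seen. Not every gene that the rule names is reported. Alternatives changed the scaling, the samples, dye, block, filter, variance model and replicates. Slides are named by letters here.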

Additional observations from a re-analysis of the deposited data

Results flagged for a closer look

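Among the 4 MZ_Sox2 samples, 6 of 108 results had an end sample set apart from the other 3 by more than Dixon's 95% limit, where chance flags about 1 in 20 (5.4 of 108). The value given is the end sample's gap to its neighbour divided by the range of the group. MZ_Sox2 replicate 1, of slide A, was the low one for the SoxB1 gene sox19a (0.844; log2 level 9.04 against 12.002 or more in the others), for the mesoderm gene tbxta (0.832; 7.6 against 9.98 or more) and for the level of the SoxB genes (0.898; -1.55 against 0.62 or more). MZ_Sox2 replicate 2 was the low one for the adhesion gene epcam (0.944; 10.86 against 13.98 or more) and for agfg1a (0.854; 10.50 against 11.41 or more), and the high one for phlda2 (0.850; 10.29 against 8.40 or less).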

How the results depend on the processing

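In limma 0 probes were called higher and 0 lower under each of 20 alternative fits at an adjusted p under 0.05. The main fit also called 0 at an adjusted p threshold of 0.1. Probes at an unadjusted p under 0.05 ranged from 222 with slide as a random block to 1664 with array weights. The smallest adjusted p with array weights was 0.0612 in limma, over 0.05 but under 0.1. Bright genes whose groups do not overlap numbered 295; the count was 85 with the values as deposited, 161 with median centring, 721 without the 2 columns of another distribution and 799 against the MZ_Sox2 samples of slide B. Leaving out 1 replicate at a time gave 413 to 799; fewer samples make it easier for groups not to overlap. The highest counts came without MZ_Sox2 replicate 1 (799) and without MZ_Pou5f1 replicate 3 (773). Leaving out MZ_Sox2 replicate 1 leaves the MZ_Sox2 samples of slide B, so these are 1 comparison under 2 names. Both names are counted among the 20 fits.

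Of 83 named genes 71 kept their direction under each alternative fit that measured them, the lowest adjusted p of any being 0.163, and 23 of 1659 gene values reversed; the cause was not tested. Without the 2 columns of another distribution these were klf2a 0.41, sox19a 0.92, her8a 0.034, her11 1.37, foxh1 0.36, lft2 0.21, cdx4 0.077, tbxta 0.78, fabp3 -0.15 and actc1b -0.060. With 1 replicate left out at a time, values ranged from -1.24 to 0.000732 for sox2, -1.33 to 0.46 for klf2a, -1.92 to 0.91 for sox19a, -2.52 to 0.051 for her8a, -2.21 to 1.06 for her11, -0.44 to 0.37 for foxh1, -0.76 to 0.26 for lft2, -1.58 to 0.094 for cdx4, -1.74 to 0.75 for tbxta, -0.096 to 0.20 for fabp3, -0.072 to 0.62 for actc1b and -0.64 to 0.16 for wnt8a. The reversed end came without MZ_Pou5f1 replicate 2, except for wnt8a, where it came without MZ_Pou5f1 replicate 3. The plain difference against the MZ_Sox2 sample of slide A alone, which is no fit and is not in those counts, had the other sign for 17 of the 83, among them sox3 (0.70), vox (0.43) and sox11a (0.95).

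The replicate numbers did not pair the samples: deviations of same-numbered samples correlated at -0.376, -0.150 and -0.224 across bright genes. With the replicate block 0 probes were called higher and 0 lower, and fabp3 reversed to -0.012. Of 525 list medians under the alternatives 27 moved by more than the spread between replicates, and the comparison with the MZ_Sox2 sample of slide A alone was added after the data were seen.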
